A study of Mus musculus with 15 samples.

Results

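The genes described are the CXC chemokines named as *Cxcl1*, *Cxcl2*, *Cxcl3*, *Cxcl5*, *Cxcl9*, *Cxcl10*, *Cxcl11*, *Cxcl12*, *Cxcl14* and *Cxcl16*. They were chosen by gene symbol, 10 in all, and 9 of them were found among the 20089 genes of the expression table. All 9 passed the filter on low values, so they are 9 of the 11743 genes tested, and *Cxcl11* was not analysed here. Their mRNA was measured by RNA-seq in bone marrow-derived macrophages (BMDMs), precursor cells grown from mouse bone marrow, which the study's methods describe as coming from wild-type mice. Each of the 15 samples carried M-CSF, the growth factor that keeps macrophage precursors alive. The 5 groups of 3 samples were control cells with M-CSF only, cells with M-CSF and RANKL for 4 h, cells with M-CSF and RANKL for 72 h (3 days in the labels), cells with M-CSF and LPS for 4 h, and cells with M-CSF and LPS for 72 h. RANKL is the cytokine that turns these precursors into osteoclasts, and LPS is a bacterial cell wall component that puts macrophages into an inflammatory state. No group with M-CSF only at 72 h was labelled, so an effect of 72 h of stimulus and of 72 h of further culture cannot be told apart.

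CXC chemokines are small secreted proteins that guide leukocytes by binding G protein-coupled receptors of the CXCR family. Those that carry the Glu-Leu-Arg (ELR) motif before their first cysteines, here *Cxcl1*, *Cxcl2*, *Cxcl3* and *Cxcl5*, draw neutrophils through CXCR2, and macrophages make them quickly when NF-kappaB is switched on. *Cxcl9*, *Cxcl10* and *Cxcl11* are interferon-inducible ligands of CXCR3 on T and NK cells, *Cxcl12* and *Cxcl14* are made mainly by stromal and epithelial cells at rest, and *Cxcl16* is a transmembrane ligand of CXCR6 that ADAM proteases can release.

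Most of these genes lie in tight clusters. In the GENCODE M21 annotation of GRCm38, the ELR ligands sit in a block of 147 kb on chromosome 5 (90759360 to 90905938) that holds 7 coding genes, *Cxcl5*, *Ppbp*, *Pf4*, *Cxcl3*, *Cxcl15*, *Cxcl1* and *Cxcl2*. *Cxcl9*, *Cxcl10* and *Cxcl11* share a second block of 44.1 kb on the same chromosome (92321347 to 92365485), on the minus strand, where *Cxcl11* is annotated as a polymorphic pseudogene. *Cxcl12* is on chromosome 6 (117168535 to 117181367), *Cxcl14* on chromosome 13 (56288643 to 56296551) and *Cxcl16* on chromosome 11 (70453983 to 70459984). *Cxcl10* overlaps *Art3* and *Cxcl16* overlaps *Zmynd15*, each on the opposite strand, and no source used here says whether the counting used strand. *Art3* itself was listed at no more than 0.288 FPKM in any sample. *Cxcl2* and *Cxcl3* share a run of 110 identical bases in their transcripts, and the longest run that *Cxcl1* shares with either is 23 bases, so reads within these runs could be split between the genes by the authors' counting.

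The sequences just upstream of the start of *Cxcl1*, *Cxcl2*, *Cxcl3* and *Cxcl10* are shown because these are the 4 members with the largest rise after 4 h of LPS, described below. They were read from RefSeq promoter sequences on GRCm38.p6, which held 7 of the 10 members and none for *Cxcl5*, *Cxcl11* or *Cxcl16*. The *Cxcl10* window lies further upstream than the other 3, and all are written 5′ to 3′ along the gene. Capitals mark letters of an NF-kappaB (kB) motif in each and, in the *Cxcl10* window, the first run of capitals marks an interferon-stimulated response element (ISRE).
Cxcl1, chr5:90891135-90891214, plus strand: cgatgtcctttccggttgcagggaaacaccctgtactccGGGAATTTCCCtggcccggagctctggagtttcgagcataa
Cxcl2, chr5:90903789-90903868, plus strand: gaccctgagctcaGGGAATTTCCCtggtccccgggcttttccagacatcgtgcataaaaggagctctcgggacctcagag
Cxcl3, chr5:90785991-90786070, plus strand: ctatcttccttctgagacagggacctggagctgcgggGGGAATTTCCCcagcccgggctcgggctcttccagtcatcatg
Cxcl10, chr5:92349030-92349119, minus strand: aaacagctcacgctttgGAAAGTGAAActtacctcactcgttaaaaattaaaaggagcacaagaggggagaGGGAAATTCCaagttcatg

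The kB motif was searched as GGGAA and TTCC with any 1 base between them, and the ISRE as GAAA and GAAA with any 2 bases between them, on both strands of the 250 bases upstream of each start, with both motifs picked after the results were known. The kB letters were in 93 of 32851 promoters (0.283%) and in 4 of the 7 members with a promoter sequence, namely the 4 printed. In *Cxcl1*, *Cxcl2* and *Cxcl3* the match began 71, 97 and 73 bases before the start, and since its letters read almost alike on both strands, each of these promoters holds overlapping matches on the 2 strands. In *Cxcl10* it began 159 bases before the start. The ISRE letters were in 978 promoters (2.98%) and in 2 members, *Cxcl10* at 213 and *Cxcl14* at 172 bases before the start. These matches describe letters and are not shown to be bound.

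Expression was deposited as FPKM, a fragment count divided by gene length and library size, so levels of different genes are compared here per length. Between 18306184 and 20330207 fragments (median 19351141) fell on the listed genes per sample. The macrophage markers were present in every sample, with *Cd68* at 1090 to 1570 FPKM and *Csf1r* at 113 to 339 FPKM. Markers of other cell types were present too. In control the neutrophil marker sum was 24000, 7580 and 21200 FPKM, beside 9040, 8830 and 7320 FPKM for the macrophage markers. The control sums were lower for stromal markers (134 to 289 FPKM) and B cell markers (16.2 to 20.9 FPKM). They were 10 to 19.5 FPKM for T and NK cell markers and 12.5 to 19 FPKM for endothelial markers. LPS 72 h replicate 3 stood apart from its own group, and calls in that group that change without it are given both ways. Its median chi-square ratio per gene to the other LPS 72 h libraries was 46.3 and 31.5, against 7.73 between those 2 and 6.88 to 19.8 between replicates of the other groups. It also had higher sums of macrophage markers (17200 FPKM against 5800 and 7630), stromal markers (445 against 95.7 and 105) and neutrophil markers (1820 against 203 and 165). The macrophage sum was led by *Lyz2* (13800 against 3710 and 5280). *Adgre1* (1100 against 356 and 551) and *Itgam* (505 against 207 and 233) were also higher. *Cd68* (1280 against 1140 and 1160) and *Mertk* (33.2 against 32.4 and 24.1) differed little. The stromal sum was led by *Col1a1* (188 against 27.2 and 24), while *Dcn* was not higher (3.26 against 3.86 and 6.14). In such bulk samples, fewer cells of a type and less RNA per cell cannot be told apart. The labels do not say whether replicates came from separate animals or cultures, so p-values measure only the spread between these samples.

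Changes are given as log2 fold changes of FPKM + 0.1 with their standard error, which understate the change of genes near 0. A gene was called changed at a fold above 1.5 or below 0.66 together with a limma p below 0.05 once adjusted by Benjamini and Hochberg across the 11743 genes. The median gene shifted by -0.52 in LPS 4 h against control and by 0.16 in RANKL 72 h against control, so values centred on the median gene are added where they turn the sign of a printed value or a call. Without centring, 990 genes were called higher and 4660 lower in LPS 4 h, and with it 1871 and 1529.

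**Figure D1:**
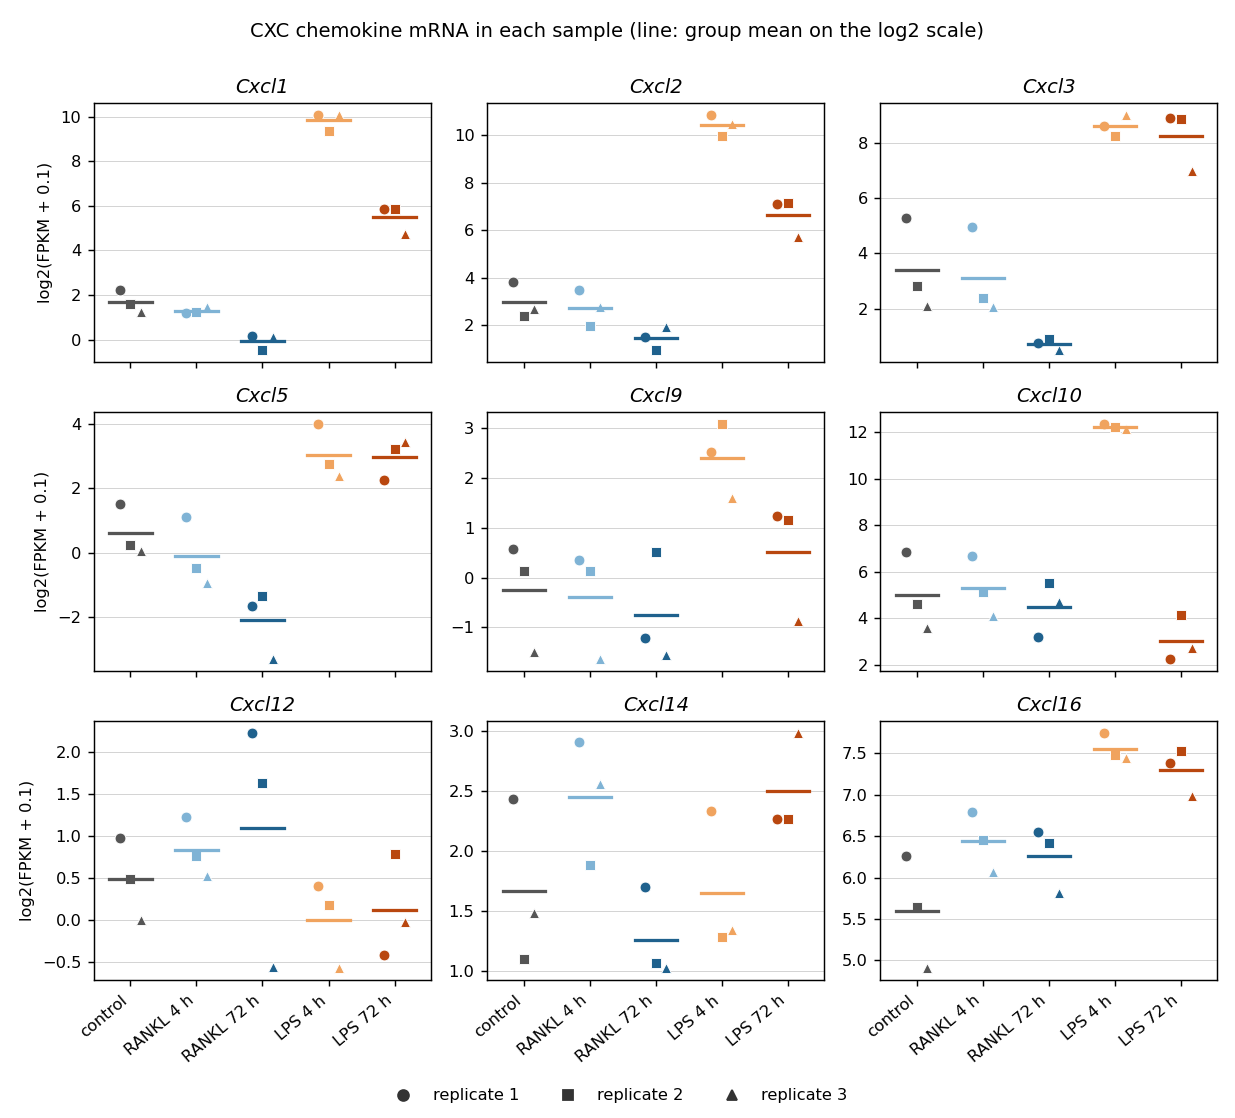
Level of each CXC chemokine in every sample, as log2(FPKM + 0.1) on a separate scale for each gene, with groups along the horizontal axis, marker shapes for replicates 1 to 3 and a line at the group mean. *Cxcl1*, *Cxcl2* and *Cxcl10* peaked in LPS 4 h, while *Cxcl3* and *Cxcl5* were at similar levels in LPS 4 h and LPS 72 h, and the 4 ELR ligands were lowest in RANKL 72 h.

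LPS for 4 h raised 7 of the 9 measured CXC chemokines and lowered none, where 8.43% of all tested genes were called higher. The 4 ELR ligands, the CXCR3 ligands *Cxcl9* and *Cxcl10* and the transmembrane *Cxcl16* all rose, whereas *Cxcl12* and *Cxcl14* did not pass the test. The members' median log2 change was 2.65, beside -0.52 over all tested genes. The same 7 members were called under each of the alternative settings that were run.

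*Cxcl1*, the mouse counterpart of the human GRO chemokines, rose the most. Its level was 4.58, 2.9 and 2.25 FPKM in the control samples and 1080, 661 and 1080 FPKM in LPS 4 h, a log2 change of 8.16 ± 0.32 or 286-fold (adjusted p = 1.23e-09). The groups did not overlap, and the lowest LPS 4 h sample held 13540 fragments of *Cxcl1* where the highest control held 94. *Cxcl2*, also called MIP-2, went from 13.8, 5.07 and 6.32 FPKM to 1850, 996 and 1420 FPKM (log2 change 7.48 ± 0.47, 178-fold, adjusted p = 4.21e-08). *Cxcl2* was thereby the ELR ligand with the highest level per length in all 3 LPS 4 h samples.

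*Cxcl3* was more uneven at rest, with 38.9 FPKM in control replicate 1 and 7 and 4.17 FPKM in the other two. In LPS 4 h it stood at 385, 300 and 508 FPKM, above every control sample, and its log2 change was 5.20 ± 0.81 (36.7-fold, adjusted p = 1.07e-04). Without control replicate 1 the fold was 70.5 and without control replicate 3 it was 23.4. *Cxcl5*, an ELR ligand best known from epithelial cells, was far lower throughout, at 2.76, 1.08 and 0.936 FPKM in control and 15.9, 6.75 and 5.15 FPKM in LPS 4 h. Its groups did not overlap either (log2 change 2.46 ± 0.64, 5.49-fold, adjusted p = 0.00467).

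Among the CXCR3 ligands, *Cxcl10* and *Cxcl9* both rose after 4 h of LPS, but from very different levels. *Cxcl10*, also known as IP-10, was at 114, 24.1 and 11.8 FPKM in control and at 5230, 4880 and 4560 FPKM in LPS 4 h (log2 change 7.25 ± 0.82, 153-fold, adjusted p = 7.56e-06). Without control replicate 1, its highest control, the fold was 288, and without control replicate 3, its lowest, it was 93.1. It then ranked between place 5 and place 8 of the 20089 genes by FPKM in the LPS 4 h samples and took 0.53% to 0.605% of the fragments recovered on the listed genes. *Cxcl9*, also known as MIG, reached only 5.61, 8.29 and 2.92 FPKM, from 1.38, 1 and 0.258 FPKM in control (log2 change 2.65 ± 0.75, adjusted p = 0.00751, or 2.04 without control replicate 3). The log2 ratio of *Cxcl10* to *Cxcl9* was 9.86 ± 0.69 (SD, n = 3) in LPS 4 h and 5.26 ± 0.92 (SD, n = 3) in control, a difference of 4.60 with a two-sided exact permutation p of 0.1, the smallest that 3 against 3 samples allow. It was 1 of 32 such ratio tests, and its adjusted p over them was 0.213.

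*Cxcl16* was among the more abundant members already at rest, at 76.6, 49.8 and 29.8 FPKM in control. It stood at 214, 178 and 174 FPKM in LPS 4 h, above all control samples, with a log2 change of 1.95 ± 0.30 (3.87-fold, adjusted p = 8.93e-05). *Cxcl12*, the ligand of CXCR4, was at 1.87, 1.31 and 0.9 FPKM in control and 1.23, 1.03 and 0.573 FPKM in LPS 4 h, with overlapping groups (log2 change -0.49 ± 0.57, adjusted p = 0.482). *Cxcl14* was at 5.29, 2.04 and 2.69 FPKM in control and 4.94, 2.33 and 2.43 FPKM in LPS 4 h (log2 change -0.02 ± 0.39, adjusted p = 0.972). With samples centred on their median gene these 2 values became 0.08 and 0.55, neither called.

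After 72 h of LPS, 5 of the 9 members were called higher than control and none lower, where 13% of all tested genes were called higher and 14.4% lower. These were the 4 ELR ligands and *Cxcl16*. *Cxcl3* led them, at 472, 464 and 124 FPKM (log2 change 4.83 ± 0.81, 28.4-fold, adjusted p = 5.27e-04). Its fold was 54.6 without control replicate 1, 18 without control replicate 3 and 44.3 without LPS 72 h replicate 3. *Cxcl1* was at 57.5, 57.6 and 26.7 FPKM, with a log2 change of 3.80 ± 0.32 (adjusted p = 5.04e-06). *Cxcl2* was at 138, 140 and 51.9 FPKM, with a log2 change of 3.69 ± 0.47 (adjusted p = 7.65e-05). For these 3 genes LPS 72 h replicate 3 was the lowest of its group and still above every control sample.

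*Cxcl5* was at 4.71, 9.23 and 10.8 FPKM in LPS 72 h, all above control, with a log2 change of 2.38 ± 0.64 (adjusted p = 0.0111). With a pseudocount of 0.01 its adjusted p was 0.0793. *Cxcl16* was at 167, 184 and 126 FPKM, again above every control sample (log2 change 1.69 ± 0.30, adjusted p = 7.20e-04). Without LPS 72 h replicate 3 the same 5 genes were called, at log2 changes from 1.85 for *Cxcl16* to 5.47 for *Cxcl3*.

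The other 4 members were not called at 72 h of LPS. *Cxcl10* was at 4.56, 17.4 and 6.5 FPKM, of which only 17.4 reached into the control range, and its log2 change of -1.98 ± 0.82 had an adjusted p of 0.0754. Without control replicate 3 its log2 change was -2.69 (adjusted p = 0.0294). *Cxcl9* was at 2.25, 2.11 and 0.448 FPKM (log2 change 0.76 ± 0.75, adjusted p = 0.449), with overlapping groups. *Cxcl12* was at 0.649, 1.63 and 0.888 FPKM (log2 change -0.37 ± 0.57, adjusted p = 0.64), and *Cxcl14* at 4.7, 4.71 and 7.79 FPKM (log2 change 0.83 ± 0.39, adjusted p = 0.108). Without control replicate 1 the *Cxcl14* change was 1.21 (adjusted p = 0.0298).

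**Figure D2:**
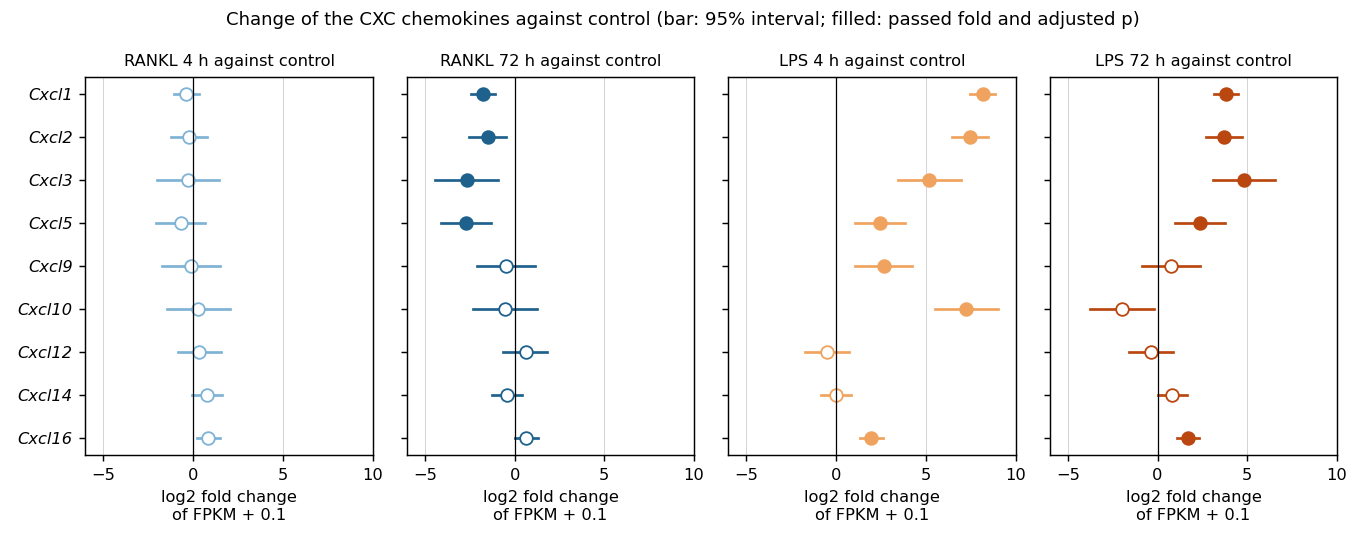
Log2 fold change of FPKM + 0.1 of each CXC chemokine against control, with one panel per stimulus and time, bars for the 95% interval and filled points for genes past the fold and adjusted p thresholds. LPS 4 h had 7 filled points to the right of 0, LPS 72 h had 5, RANKL 4 h had none and RANKL 72 h had 4, all to the left.

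RANKL for 4 h changed none of the 9 members by limma with adjusted p, where 0.111% of all tested genes were called higher and 0.00852% lower. *Cxcl16* had the largest log2 change, 0.83 ± 0.30, from 111, 87.5 and 66.7 FPKM against control at 76.6, 49.8 and 29.8 FPKM. It was the only 1 of the 9 with an unadjusted p under 0.05 (adjusted p = 0.68), beside 583 such genes of 11743, and limma voom on recovered fragments called 0 of the 9. Its value was higher than that of the same-numbered control in 3 of 3 pairs, and with the replicate number as a block its adjusted p was 0.1. The 4 ELR ligands had log2 changes from -0.70 ± 0.64 for *Cxcl5* to -0.23 ± 0.47 for *Cxcl2*, and each overlapped control. For *Cxcl1*, whose spread was the smallest of the 4, the 95% interval of the log2 change ran from -1.07 to 0.30.

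The uneven resting level of several members went with the replicate number. *Cxcl3* was highest in replicate 1 in both control (38.9 FPKM) and RANKL 4 h (30.5 FPKM), against 4.03 to 7 FPKM in the other 4 samples of these groups. *Cxcl10* showed the same order, at 114 and 102 FPKM in replicate 1 and 11.8 to 34.6 FPKM in the other 4. What the replicates with the same number share is not stated in the labels.

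In RANKL 72 h the 4 ELR ligands were called lower than control and no member was called higher. Of all tested genes, 7.54% were called lower and 16.6% higher. RANKL and 72 h of further culture cannot be told apart in this comparison. *Cxcl1* was at 1.02, 0.613 and 0.985 FPKM, below every control sample, and fell by 1.75 on the log2 scale (standard error 0.32, adjusted p = 0.00131). *Cxcl3* was at 1.61, 1.77 and 1.31 FPKM, also below every control sample, and fell by 2.68 (standard error 0.81, adjusted p = 0.023). *Cxcl5* was at 0.216, 0.294 and 0 FPKM, from 7, 10 and 0 fragments, and fell by 2.71 (standard error 0.64, adjusted p = 0.00642), a value that depends on the pseudocount and was -2.10 without replicate 3 (adjusted p = 0.0308). *Cxcl2* was at 2.74, 1.8 and 3.61 FPKM and fell by 1.51 (standard error 0.47, adjusted p = 0.0266).

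These 4 falls rested on low counts and on few libraries. *Cxcl1* was called in every alternative run, whereas the other 3 were not. By limma voom on recovered fragments only *Cxcl1* passed (adjusted p = 0.0463), with *Cxcl5* at 0.0522, *Cxcl2* at 0.085 and *Cxcl3* at 0.123. Without control replicate 1, whose *Cxcl3* level was the highest at rest, the falls of *Cxcl2* and *Cxcl3* were -1.09 (adjusted p = 0.127) and -1.74 (adjusted p = 0.112). Without RANKL 72 h replicate 1 they had adjusted p of 0.0561 and 0.0525, without RANKL 72 h replicate 2 *Cxcl2* had 0.0985, and without RANKL 72 h replicate 3 *Cxcl3* had 0.0641. With a pseudocount of 1 the adjusted p of *Cxcl5* was 0.0523. The neutrophil marker sum was 7460, 3650 and 1850 FPKM in RANKL 72 h against 24000, 7580 and 21200 FPKM in control, and its part in the lower ELR ligands was not tested. That sum was 165 to 1820 FPKM in LPS 72 h, where another stimulus was given and the ELR ligands rose. Because the stimulus differed, no conclusion on the falls in RANKL 72 h is drawn from it.

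*Cxcl16* in RANKL 72 h was at 93.9, 85.4 and 56.3 FPKM, with a log2 change of 0.66 ± 0.30 and an adjusted p of 0.105. With the replicate number as a block its adjusted p was 0.0106, which passes, and each sample was higher than the control of the same number. Without control replicate 1 it was 0.0236. *Cxcl10* was at 8.91, 46 and 25.8 FPKM (log2 change -0.54 ± 0.82, adjusted p = 0.648), and *Cxcl9* at 0.334, 1.33 and 0.239 FPKM (log2 change -0.49 ± 0.75, adjusted p = 0.645), both overlapping control. *Cxcl14* was at 3.15, 1.99 and 1.93 FPKM (log2 change -0.41 ± 0.39, adjusted p = 0.442).

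*Cxcl12* varied most between the RANKL 72 h samples. It stood at 4.56, 3 and 0.581 FPKM, the highest 2 and nearly the lowest of all 15 values, so the log2 change of 0.61 ± 0.57 had an adjusted p of 0.44. Without RANKL 72 h replicate 3 the log2 change was 1.43 with an adjusted p of 0.0237. The summed level of the 12 stromal and fibroblast markers was 1710, 783 and 379 FPKM in the same 3 samples and 134 to 289 FPKM in control. Its largest parts there were *Col1a1* (692, 322 and 158 FPKM) and *Col1a2* (532, 251 and 117 FPKM), so it was mainly a collagen level. In RANKL 72 h 7 of the 12 markers were called higher and none lower, beside 16.6% of all tested genes called higher. Among those not called, *Dcn* had a mean of 0.7 FPKM against 1.63 FPKM in control, and *Lum* 0.146 against 0.187 FPKM. None of the 12 was at 0 in all samples of a group. LPS 72 h replicate 3 had a stromal sum of 445 FPKM with *Cxcl12* at 0.888 FPKM, and LPS 72 h replicate 2 had a sum of 105 FPKM with *Cxcl12* at 1.63 FPKM. The stromal sum was not alone in being lowest in RANKL 72 h replicate 3. In replicates 1 to 3 the T and NK cell sum was 12.9, 11.6 and 2.64 FPKM and the endothelial sum 9.65, 9.81 and 3.04 FPKM. The neutrophil sum was 7460, 3650 and 1850 FPKM, while the osteoclast sum was highest in replicate 3 (3170, 1720 and 5470 FPKM). The part of stromal or other cells in the *Cxcl12* level was not tested.

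**Figure D3:**
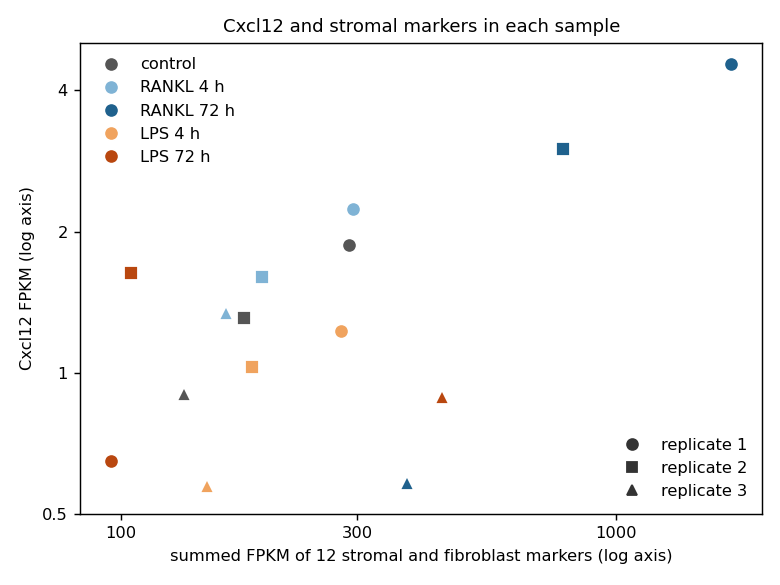
*Cxcl12* FPKM against the summed FPKM of 12 stromal and fibroblast markers in each of the 15 samples, both on log axes, with colours for groups and shapes for replicates. RANKL 72 h replicates 1 and 2 lie at the top right, at 4.56 and 3 FPKM of *Cxcl12*, while RANKL 72 h replicate 3 lies low, at 0.581 FPKM. In the RANKL 72 h samples the largest parts of the sum are *Col1a1* and *Col1a2*.

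The groups stood in the same order for *Cxcl1*, *Cxcl2*, *Cxcl3* and *Cxcl5*, from LPS 4 h down through LPS 72 h, control and RANKL 4 h to RANKL 72 h. Control and RANKL 4 h overlapped for all 4 genes, and LPS 4 h and LPS 72 h overlapped for *Cxcl3* and *Cxcl5*. For *Cxcl16* the order was LPS 4 h, LPS 72 h, RANKL 4 h, RANKL 72 h and control, with the only gap between LPS 72 h and RANKL 4 h. For *Cxcl9* and *Cxcl10* only LPS 4 h stood clear of its neighbour, and the mean of *Cxcl10* in LPS 72 h, 9.49 ± 6.93 FPKM (SD, n = 3), was the lowest of the 5 groups. For *Cxcl12* and *Cxcl14* every neighbouring pair of groups in the order overlapped.

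Whether the LPS response differed between its times was tested directly, by LPS 72 h against LPS 4 h. Here 4 of the 9 members were called lower and none higher, where 13.9% of all tested genes were called lower and 44.2% higher (5186 higher and 1631 lower, against 2209 and 3224 with samples centred on their median gene). *Cxcl10* fell by 9.23 on the log2 scale (standard error 0.82, adjusted p = 6.40e-07), from 5230, 4880 and 4560 FPKM to 4.56, 17.4 and 6.5 FPKM, a 600-fold difference. *Cxcl1* fell by 4.36 (adjusted p = 1.58e-07) and *Cxcl2* by 3.78 (adjusted p = 1.06e-05). *Cxcl9* fell by 1.89 (standard error 0.75, adjusted p = 0.0372), a call that was lost without LPS 72 h replicate 3 (log2 change -1.21, adjusted p = 0.175). It was also lost without LPS 4 h replicate 1 (adjusted p = 0.0825) or 2 (adjusted p = 0.125), with a pseudocount of 0.01 (0.0528) and with no filter on low values (0.0573).

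*Cxcl3*, *Cxcl5*, *Cxcl12*, *Cxcl14* and *Cxcl16* were not called between the LPS times. *Cxcl3* differed by -0.37 with a 95% interval from -2.11 to 1.37, *Cxcl5* by -0.08 with an interval from -1.45 to 1.29, and *Cxcl16* by -0.26 with an interval from -0.90 to 0.38. Without LPS 72 h replicate 3 the *Cxcl3* difference was 0.27 (adjusted p = 0.797). With samples centred on their median gene the *Cxcl16* difference was -0.91 with an adjusted p of 0.0265. *Cxcl12* differed by 0.11 (adjusted p = 0.87), or by -0.54 after centring (adjusted p = 0.451). *Cxcl14* differed by 0.85 (adjusted p = 0.0651), or by 0.20 after centring (adjusted p = 0.699). It was called higher without control replicate 1 (adjusted p = 0.0401) or LPS 4 h replicate 1 (adjusted p = 0.0184), and with FPKM rescaled to equal sums (adjusted p = 0.0356).

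The make-up of the ELR ligand mRNA also differed between the LPS times. At 4 h *Cxcl2* made up 47.2% to 55.5% of the summed FPKM of the 4 genes, *Cxcl1* 32.5% to 35.7%, *Cxcl3* 11.6% to 16.9% and *Cxcl5* at most 0.478%. At 72 h *Cxcl3* made up 58% to 70.2%, *Cxcl2* 20.6% to 24.4%, *Cxcl1* 8.56% to 12.6% and *Cxcl5* up to 5.07%. The log2 ratio of *Cxcl3* to *Cxcl2* was -1.83 ± 0.40 (SD, n = 3) at 4 h and 1.58 ± 0.29 (SD, n = 3) at 72 h, without overlap, a difference of 3.41 (two-sided exact permutation p = 0.1, the smallest possible, adjusted p = 0.213 over 32). The log2 ratio of *Cxcl1* to *Cxcl2* moved less, from -0.59 ± 0.19 to -1.16 ± 0.18 (SD, n = 3, exact permutation p = 0.1, adjusted p = 0.213). The summed level was 13.7 to 60.1 FPKM in control, 1960 to 3330 FPKM in LPS 4 h, 213 to 672 FPKM in LPS 72 h and 4.48 to 5.91 FPKM in RANKL 72 h. In control the share of *Cxcl3* ranged from 30.5% to 64.8%, so neither LPS time can be set against a steady resting make-up.

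**Figure D4:**
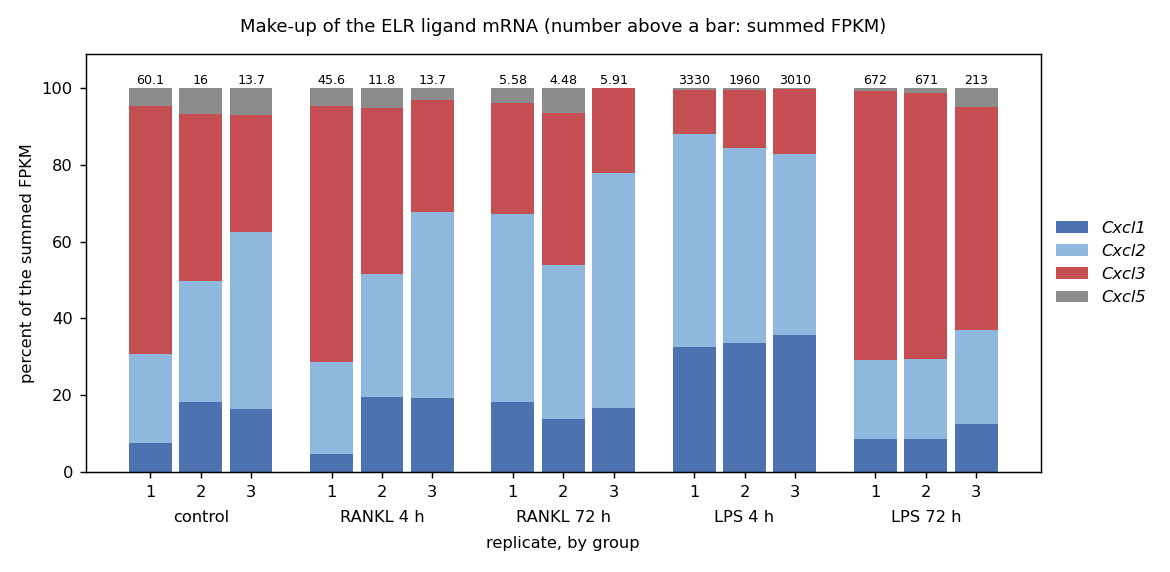
Share of *Cxcl1*, *Cxcl2*, *Cxcl3* and *Cxcl5* in their summed FPKM, in percent, with one stacked bar per sample and the summed FPKM above each bar. *Cxcl3* took 58% to 70.2% in the LPS 72 h samples and 11.6% to 16.9% in the LPS 4 h samples.

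Between the RANKL times, 4 members were called lower at 72 h than at 4 h and none higher, where 6.83% of all tested genes were called lower and 16.4% higher (1930 higher and 802 lower, against 1141 and 1351 after centring). *Cxcl3* fell by 2.40 (adjusted p = 0.0393), *Cxcl5* by 2.01 (adjusted p = 0.0308), *Cxcl1* by 1.37 (adjusted p = 0.00628) and *Cxcl14* by 1.19 (standard error 0.39, adjusted p = 0.0333). The *Cxcl14* values were 7.39, 3.58 and 5.8 FPKM at 4 h and 3.15, 1.99 and 1.93 FPKM at 72 h, without overlap. *Cxcl2* had a log2 change of -1.28 with an adjusted p of 0.0544, and with the replicate number as a block its adjusted p was 0.019. With samples centred on their median gene *Cxcl2* was called, at -1.50 (adjusted p = 0.0316). It also passed without control replicate 1 (adjusted p = 0.0382), RANKL 4 h replicate 2 (0.0301) or LPS 72 h replicate 3 (0.0296). Without RANKL 4 h replicate 1 or without RANKL 72 h replicate 3 only *Cxcl1* was called, without RANKL 72 h replicate 2 *Cxcl3* (adjusted p = 0.0754) and *Cxcl14* (adjusted p = 0.096) were not, without RANKL 72 h replicate 1 *Cxcl3* (adjusted p = 0.0796) was not, without RANKL 4 h replicate 3 *Cxcl14* (adjusted p = 0.0809) was not, and by limma voom only *Cxcl14* was called (adjusted p = 0.03).

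The 2 stimuli were also compared at matched times. At 4 h, 7 members were lower in RANKL than in LPS, where 8.98% of all tested genes were called lower and 41% higher (4818 higher and 1054 lower, against 1580 and 1905 after centring). They were the same 7 that rose in LPS 4 h, a comparison that shares the LPS 4 h samples, from *Cxcl1* with a log2 change of -8.54 ± 0.32 (adjusted p = 8.27e-10) to *Cxcl16* with -1.12 ± 0.30 (adjusted p = 0.00518). *Cxcl14* had a log2 change of 0.80 with an adjusted p of 0.0875, and with the replicate number as a block its adjusted p was 0.0248. It also passed without RANKL 4 h replicate 2 (adjusted p = 0.0408) or LPS 4 h replicate 1 (adjusted p = 0.0263).

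At 72 h, 6 members were lower in RANKL than in LPS, where 12.8% of all tested genes were called lower and 23.3% higher (2739 higher and 1506 lower, against 2237 and 2045 after centring). *Cxcl3* had the largest difference, from 472, 464 and 124 FPKM in LPS 72 h to 1.61, 1.77 and 1.31 FPKM in RANKL 72 h (log2 change -7.51 ± 0.81, 182-fold, or 284-fold without LPS 72 h replicate 3, adjusted p = 7.63e-06). *Cxcl1*, *Cxcl2* and *Cxcl5* differed by -5.55, -5.20 and -5.09, each without overlap. *Cxcl14* differed by -1.24 (adjusted p = 0.0175) and *Cxcl16* by -1.03 (adjusted p = 0.0116). *Cxcl10* and *Cxcl12* had the opposite sign without a call, at 1.44 ± 0.82 (adjusted p = 0.167) and 0.98 ± 0.57 (adjusted p = 0.175). Without LPS 72 h replicate 3 *Cxcl14* had an adjusted p of 0.0626 and *Cxcl9* passed, at -1.94 (adjusted p = 0.0477). Without RANKL 72 h replicate 3 *Cxcl14* (adjusted p = 0.0582) and *Cxcl16* (adjusted p = 0.0563) were not called and *Cxcl12* was, at 1.81 (adjusted p = 0.00397), and without RANKL 72 h replicate 2 *Cxcl14* had an adjusted p of 0.0578.

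The receptors of these ligands were measured in the same bulk samples, which do not show which cells carry them. Of 8 listed receptor genes 7 were tested. In LPS 4 h 3 of the 7 fell, a share close to the 39.7% of all tested genes called lower, and none rose. *Cxcr4*, the receptor of CXCL12, was at 49.8, 29.8 and 62.8 FPKM in control and 9.08, 4.53 and 9 FPKM in LPS 4 h, and fell by 2.64 (adjusted p = 1.68e-04). *Cxcr2*, the receptor of the ELR ligands, was at 12.5, 2.4 and 23.3 FPKM in control and 1.87, 0.313 and 1.81 FPKM in LPS 4 h, and fell by 2.96 (adjusted p = 0.0311). *Cxcr3*, the receptor of CXCL9 and CXCL10, went from 1.33, 1.49 and 2.14 FPKM to 0.485, 0.579 and 0.439 FPKM and fell by 1.52 (adjusted p = 0.00546). With samples centred on their median gene only *Cxcr4* of the 3 was still called, with *Cxcr2* at -2.40 (adjusted p = 0.115) and *Cxcr3* at -0.96 (adjusted p = 0.0968), and *Ackr3* was called higher at 1.44 (adjusted p = 0.0126). The *Cxcr2* call was also lost without control replicate 1 (adjusted p = 0.0808), control replicate 3 (0.126) or LPS 4 h replicate 2 (0.129). With the replicate number as a block *Cxcr6*, the receptor of CXCL16, was called lower (adjusted p = 0.0283) and *Ackr3* higher (adjusted p = 0.0355). The T and NK cell marker sum was 2.98 to 12.3 FPKM in LPS 4 h and 10 to 19.5 FPKM in control. The part of these cells in *Cxcr3* and *Cxcr6* was not tested.

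In LPS 72 h only *Cxcr2* of the 7 was called, a share close to the 14.4% of all tested genes called lower, at 0.797, 0.0466 and 3.54 FPKM, of which 3.54 overlapped control. It fell by 3.53 (adjusted p = 0.0228), with adjusted p from 0.0545 to 0.113 without LPS 72 h replicate 1 or 2 or control replicate 1 or 3. Without LPS 72 h replicate 3 *Cxcr3* was called too, at -1.04 (adjusted p = 0.00846). *Cxcr2* is also abundant in neutrophils, and the neutrophil marker sum was 165 to 1820 FPKM in LPS 72 h, 6440 to 21100 FPKM in LPS 4 h and 7580 to 24000 FPKM in control. In RANKL 72 h 1 of the 7 was called, a share close to the 16.6% of all tested genes called higher. It was *Ackr3*, a scavenging receptor that also binds CXCL12, rising from 0.321, 0.162 and 0.0431 FPKM to 2.22, 1.03 and 0.726 FPKM (log2 change 2.37 ± 0.40, adjusted p = 8.10e-04). The stromal marker sum given above for *Cxcl12* was higher in those samples too, and its part in *Ackr3* was not tested. *Cxcr5*, the receptor of CXCL13, had a log2 change of -1.26 (adjusted p = 0.088), which passed with the block (adjusted p = 0.0304). *Cxcr3* had 0.66 (adjusted p = 0.23), which passed without LPS 72 h replicate 3 (adjusted p = 0.0485). The B cell marker sum was 5.08 to 7.24 FPKM in RANKL 72 h and 16.2 to 20.9 FPKM in control. Of the 5 B cell markers 4 were called lower, beside 7.54% of all tested genes. The T and NK cell marker sum was 2.64 to 12.9 FPKM in RANKL 72 h and 10 to 19.5 FPKM in control. Of its 5 markers *Klrb1c* was called higher and *Nkg7* lower. The part of these cells in *Cxcr5* and *Cxcr3* was not tested. In RANKL 4 h none of the 7 was called.

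Of 5 listed proteases that cut or release CXC ligands, all were tested. *Adam17*, a sheddase of transmembrane proteins, rose in LPS 4 h by 0.64 ± 0.13 (adjusted p = 7.73e-04, with the fold under 1.5 and no call without control replicate 1 or LPS 4 h replicate 2 or 3, at 0.57 to 0.58) and in RANKL 72 h by 0.95 ± 0.13 (adjusted p = 1.66e-04). *Adam10*, which releases CXCL16 at rest, went from 33.7, 39.7 and 42.4 FPKM in control to 15.3, 23.4 and 21.5 FPKM in LPS 4 h, and fell by 0.96 (adjusted p = 2.63e-04). Centred on the median gene it was not called (log2 change -0.39, adjusted p = 0.0547). *Mmp9*, a gelatinase of osteoclasts and neutrophils that also trims CXC ligands, rose in RANKL 72 h from 44.3, 14.1 and 107 FPKM to 1240, 719 and 2390 FPKM (log2 change 4.98 ± 0.65, adjusted p = 1.36e-04) and fell by 2.08 in LPS 4 h (adjusted p = 0.0138). That fall was not called after centring (-1.51, adjusted p = 0.0929), nor without control replicate 3 (adjusted p = 0.0755) or LPS 4 h replicate 2 (adjusted p = 0.0535). *Mmp8*, a collagenase stored by neutrophils, fell by 1.23 in LPS 4 h (adjusted p = 0.0346) and rose in LPS 72 h by 1.30 ± 0.47 (adjusted p = 0.0437). Neither call of *Mmp8* remained after centring (adjusted p = 0.299 and 0.0619) or without control replicate 1 (0.0651 and 0.0925), and the rise was not called without any 1 of the 3 LPS 72 h samples (0.0759 to 0.106, the last without replicate 3). *Dpp4*, which clips and inactivates CXCL10 and CXCL12, was called only in LPS 72 h, where it fell by 1.40 (adjusted p = 0.0235), with adjusted p from 0.0603 to 0.0857 without control replicate 1 or 2 or LPS 72 h replicate 1 or 2.

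NF-kappaB is known to switch on the ELR ligands, and the interferon list holds interferon beta, factors that relay its signal and genes it induces. In LPS 4 h all 7 listed NF-kappaB genes rose, where 8.43% of all tested genes were called higher, with *Nfkbiz*, a nuclear cofactor, at 4.53, 3.28 and 5.17 FPKM in control and 184, 197 and 138 FPKM in LPS 4 h (log2 change 5.30 ± 0.22, adjusted p = 1.49e-09). In LPS 72 h 5 of the 7 were called higher, beside 13% of all tested genes, *Nfkbiz* by 2.13 ± 0.22 and the inhibitor *Nfkbia* by 1.90 ± 0.21. In RANKL 72 h 4 of the 7 rose, beside 16.6% of all tested genes, among them *Nfkb2* of the non-canonical pathway by 2.24 ± 0.18 (adjusted p = 2.41e-06), while *Nfkbiz* had a log2 change of -0.20 ± 0.22. *Nfkb1*, one of the 4, was at 0.40 and under the fold threshold after centring. In RANKL 4 h *Nfkb2* alone was called (log2 change 1.05 ± 0.18, adjusted p = 0.0449), a call lost after centring (adjusted p = 0.0905), by limma voom (0.0566) and without any 1 of the 3 RANKL 4 h samples (0.111 to 0.249). With the replicate number as a block *Relb* was called as well (1.33, adjusted p = 0.0367).

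Of 7 interferon response genes, 4 rose in LPS 4 h, namely *Ifnb1* (3.72 ± 0.73), *Ifit1* (3.48 ± 0.65), *Irf1* (3.00 ± 0.38) and *Isg15* (2.06 ± 0.61, with an adjusted p of 0.0571 without control replicate 3). With centring *Irf9* and *Stat2* were called higher as well, at 0.59 and 1.08. Here too 8.43% of all tested genes were called higher. In LPS 72 h none of the 7 was called higher and 2 were called lower, beside 14.4% of all tested genes. *Ifnb1*, the gene of interferon beta, went from 3.87, 1.89 and 0.649 FPKM in control to 50.5, 21.2 and 12.5 FPKM in LPS 4 h and was at 0.061, 0 and 0 FPKM, which is 1 fragment in all, in LPS 72 h. *Isg15* fell by 2.10 in LPS 72 h (adjusted p = 0.0169), with an adjusted p of 0.0799 without control replicate 1 and 0.0719 without LPS 72 h replicate 1. Among the 7, 5 fell in RANKL 72 h, beside 7.54% of all tested genes, and *Irf1* passed as well with the block (-0.63, adjusted p = 0.0437). *Isg15* was 1 of the 5 and went from 1040, 488 and 213 FPKM in control to 38.9, 66.6 and 51.7 FPKM (log2 change -3.22 ± 0.61, adjusted p = 0.00176). *Cxcl10* stayed within the control range there, between 8.91 and 46 FPKM, apart from the lowest sample.

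**Figure D5:**
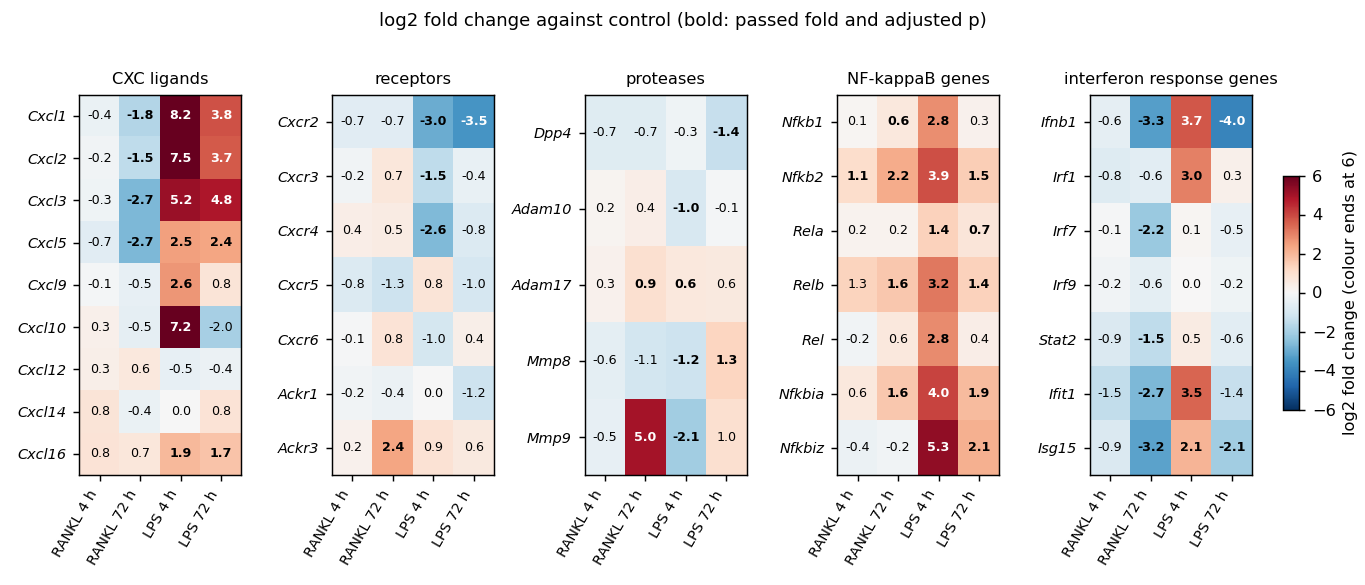
Log2 fold change of FPKM + 0.1 against control for the CXC ligands, their receptors, proteases that act on them, NF-kappaB genes and interferon response genes, with one column per stimulus and time and bold numbers for genes past the thresholds. The NF-kappaB genes are red at LPS 4 h and mostly at LPS 72 h, whereas *Ifnb1* and *Isg15* are red at LPS 4 h and blue at LPS 72 h.

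The genes whose level was most like that of each member over the 15 samples were listed by Pearson correlation of log2(FPKM + 0.1), as a description of patterns that the 5 groups largely set. *Cxcl1* and *Cxcl2* were most like the inflammatory cytokine genes *Il6* (r = 0.991 and 0.994), *Il1a* and *Il1b*, and among the members they were most like each other (r = 0.99). *Cxcl3* was most like *Cd274* (r = 0.985), which encodes PD-L1, *Slc31a2* and *Il12a*, and *Cxcl5* was most like *Prdx5* (r = 0.957), *Fpr2* and *Ccl5*. *Cxcl10* was most like *Lad1* (r = 0.968), *Lhx2* and *Dnaja2*, and *Cxcl9* was most like *Serpina3f* (r = 0.937), *Serpina3g* and *Fam26f*. *Cxcl12* was most like *Hoxa10* (r = 0.943), then *Fads3* (r = 0.882) and the T cell marker *Cd3d* (r = 0.874). *Cxcl16* was most like *Filip1l* (r = 0.901) and *Cxcl14* was most like *Ctss* (r = 0.883).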

How the data were processed

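RNA-seq of 15 BMDM samples, 5 groups of 3, was analysed, with groups and replicate numbers taken from the sample labels. The authors deposited 1 FPKM value per gene and sample, made with StringTie and Ballgown according to the study's methods. The submitters' processing notes name StringTie and the builds GRCm38.p4 and mm10, and the aligner is not given in the sources used here. The table was read to its last complete gene, which gives 20089 genes, and later genes were not analysed here.

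The members and gene lists were chosen with earlier results of these data known. The genes named are the 10 members, the genes of lists of other CXC ligands, receptors, proteases, mRNA decay factors, NF-kappaB and interferon response genes and cell type markers, and the 3 genes most correlated with each member. One gene of the interferon list is not reported here. *Art3* was added after seeing that it overlaps *Cxcl10*.

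For testing, 0.1 was added to each FPKM before taking log2, and linear models of limma 3.58.1 in R 4.3.3 with a variance trend held all 5 groups at once. Genes averaging under 0.1 FPKM were dropped, which left 11743. The procedure was checked on simulated data. The values of each gene were whole multiples of a step per sample, from which fragment counts were recovered for 14485 genes (100% of values within 0.01 of a whole number). Fragments per sample numbered 18306184 to 20330207, and counting error alone understates the spread between samples. Ratios between members were compared by exact permutation tests.

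Whether replicate numbers pair the samples was checked by correlating deviations from the group means over the tested genes. Every same-numbered pair correlated above 0.1 in the comparisons made without the LPS 72 h group (lowest 0.127), but not in those with it (lowest -0.224). Alternatives concerned the pseudocount, the filter, the scaling, the groups in the fit, the block, the trend, the adjustment of p, limma voom with TMM scaling on the recovered fragments, and leaving out each replicate. Python 3.11.15 with scipy 1.17.1, pandas 2.3.3 and numpy 2.4.6 served for all else, and matplotlib 3.10.9 drew the plots.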

Additional observations from a re-analysis of the deposited data

Results flagged for a closer look

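Single members differed between times under the same stimulus, or between stimuli at the same time, by a direct limma test of the difference (fold threshold and adjusted p). Between LPS 72 h and LPS 4 h the log2 differences were -4.36 for *Cxcl1*, -3.78 for *Cxcl2*, -1.89 for *Cxcl9* and -9.23 for *Cxcl10*. Between RANKL 72 h and RANKL 4 h they were -1.37 for *Cxcl1*, -2.40 for *Cxcl3*, -2.01 for *Cxcl5* and -1.19 for *Cxcl14*. Between RANKL 4 h and LPS 4 h they were -8.54 for *Cxcl1*, -7.70 for *Cxcl2*, -5.48 for *Cxcl3*, -3.16 for *Cxcl5*, -2.78 for *Cxcl9*, -6.96 for *Cxcl10* and -1.12 for *Cxcl16*. Between RANKL 72 h and LPS 72 h they were -5.55 for *Cxcl1*, -5.20 for *Cxcl2*, -7.51 for *Cxcl3*, -5.09 for *Cxcl5*, -1.24 for *Cxcl14* and -1.03 for *Cxcl16*. Some of these calls were lost under alternative settings. Between the RANKL times *Cxcl3* lost its call in 8 of 27 alternatives, *Cxcl5* in 5, *Cxcl14* in 4 and *Cxcl1* in 1. Between the LPS times *Cxcl9* lost its call in 5 of 26. Between RANKL 72 h and LPS 72 h *Cxcl14* lost its call in 3 of 26 and *Cxcl16* in 1. With 3 samples a group, single samples far from their group were not tested for.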

How the results depend on the processing

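No call of a member turned its sign under any alternative run. Of the single-gene results under the alternatives, 1846 kept their side of the thresholds, 38 lost a call and 33 gained one. LPS 4 h against control kept 7 members higher and RANKL 4 h against LPS 4 h kept 7 lower throughout.

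Leaving out 1 replicate gave these ranges of members called. They were 5 to 6 higher and 0 to 1 lower in LPS 72 h against control, 0 to 1 higher and 2 to 4 lower in RANKL 72 h against control, 0 to 1 higher and 3 to 4 lower in LPS 72 h against LPS 4 h, 1 to 5 lower in RANKL 72 h against RANKL 4 h, 0 to 1 higher in RANKL 4 h against LPS 4 h and 0 to 1 higher and 4 to 6 lower in RANKL 72 h against LPS 72 h. With unadjusted p, 1 member was lower in LPS 72 h against control, 1 higher in RANKL 4 h against control, 1 higher in RANKL 72 h against control and 1 higher in LPS 72 h against LPS 4 h. With FPKM rescaled to equal sums, 1 member was higher in RANKL 72 h against control and 1 in LPS 72 h against LPS 4 h. By voom on recovered fragments, 1 member was lower in RANKL 72 h against control and 1 in RANKL 72 h against RANKL 4 h, where a pseudocount of 1 left 2. With only the compared groups in the fit, 1 member was higher in RANKL 4 h against LPS 4 h. The cause of these differences was not tested.

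With the replicate number as a block, 1 member was higher in each of RANKL 72 h against control, LPS 72 h against LPS 4 h and RANKL 4 h against LPS 4 h. With the block and without the LPS 72 h group, chosen after seeing the data, 1 member was higher in RANKL 72 h against control and 1 in RANKL 4 h against LPS 4 h. Where the numbers did not pair the samples, the block added *Cxcl14* in LPS 72 h against control (adjusted p = 0.0325) and against LPS 4 h (adjusted p = 0.0162) and *Cxcl9* in RANKL 72 h against LPS 72 h (adjusted p = 0.0122). Apart from these and the calls named in the report, the block changed no call of a member.

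Each group had 3 samples, and *Cxcl1*, *Cxcl5* and *Cxcl9* had under 100 fragments in every control sample, which limits the precision of their changes. The scaling mattered most for genes called lower in LPS 4 h, where centring on the median gene ended the calls of *Cxcr2*, *Cxcr3*, *Adam10*, *Mmp8* and *Mmp9*.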

Other observations

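The block of ELR ligands on chromosome 5 also holds CXC genes that were not called higher with them after LPS. *Ppbp*, the platelet basic protein gene next to *Cxcl5*, was at 169, 54.4 and 48.7 FPKM in control and 100, 34.9 and 25.8 FPKM in LPS 4 h (log2 change -0.77 ± 0.70, adjusted p = 0.36). It fell by 2.14 in LPS 72 h (adjusted p = 0.0292, but 0.11 to 0.126 without LPS 72 h replicate 1 or 2 or control replicate 1) and by 4.71 in RANKL 72 h (adjusted p = 3.09e-04), where it was at 4.44, 2.66 and 1.92 FPKM. *Pf4*, the platelet factor 4 gene that lies between *Ppbp* and *Cxcl3*, was at 568, 693 and 602 FPKM in control and 579, 600 and 561 FPKM in LPS 4 h (log2 change -0.09 ± 0.40, adjusted p = 0.854, or 0.47 with samples centred on their median gene, adjusted p = 0.433). Of the listed comparisons with control it was called in none, and LPS 72 h replicate 3, at 2110 FPKM, was the highest of all samples. Without that sample *Pf4* was called lower in RANKL 72 h (-0.80, adjusted p = 0.00941). *Cxcl15* and *Cxcl17* were listed at 0 in every sample, and *Cxcl13* at no more than 0.0862 FPKM.

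Of 6 listed genes that set the decay of chemokine mRNA, 2 were analysed here. *Elavl1*, an RNA-stabilising protein gene, was at 8.48 to 11 FPKM in all samples and was not called against control. *Traf3ip2*, the gene of the IL-17 receptor adaptor Act1, was at 1.11, 1.59 and 1.41 FPKM in control and rose in LPS 4 h (log2 change 0.67 ± 0.25, adjusted p = 0.033, but 0.0576 to 0.116 without control replicate 1 or 3 or any 1 LPS 4 h sample), LPS 72 h (1.88 ± 0.25, adjusted p = 1.09e-04) and RANKL 72 h (1.45 ± 0.25, adjusted p = 9.42e-04).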
